A study of Mus musculus with 9 samples.

Results

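The genes described here encode the receptors for serotonin, noradrenaline and adrenaline, dopamine and histamine, together with the muscarinic receptors for acetylcholine. They were chosen by name alone, as the probe sets with a single gene symbol of the Htr1 to Htr7, Adra, Adrb, Drd, Chrm or Hrh families. The rule found 37 genes, each with 1 probe set, of 21367 single-symbol probe sets tested. Of these, 14 are serotonin receptors, 9 adrenergic, 5 dopamine, 5 muscarinic and 4 histamine receptors.

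RNA was measured in the olfactory bulb of 8-week-old male mice of the outbred ICR stock with Clariom S arrays, which carry short-oligonucleotide probe sets for known genes. The mice were housed singly and breathed an aerosol by whole-body inhalation for 7 days, of 1% Tween 80 (the vehicle, a detergent) or of linalyl acetate, a volatile ester of lavender oil, at 1% or 10%. A tail suspension test, which scores immobility, followed 30 min of inhalation. Each of the 3 groups held 3 arrays, 9 in all. No title states that Tween 80 was also in the aerosols with linalyl acetate. If it was not, the ester and the absence of detergent cannot be told apart. The descriptions of vehicle replicates 1, 2 and 3 and of 1% replicates 1 and 2 name oral and injected treatments at odds with the titles: saline for vehicle replicates 1 and 2, but an injection of LPS (lipopolysaccharide) for vehicle replicate 3 and for both 1% arrays. Oleacein, a compound in no title, is also named among the oral treatments. Groups follow the titles, which match the source names. No label ties a sample to a single animal, so p-values measure the spread between samples, which may be technical.

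The olfactory bulb makes dopamine in its own interneurons and receives serotonin from the raphe nuclei, noradrenaline from the locus coeruleus, acetylcholine from the basal forebrain and histamine from the hypothalamus. These transmitters act mostly through receptors coupled to G proteins, which either raise cyclic AMP (Gs), lower it (Gi/o) or mobilise calcium through phospholipase C (Gq/11). The type 3 serotonin receptors are the exception and form ion channels. Many of the genes are also strongly expressed in cortex or striatum.

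Values are log2 signal, so a difference of 1 is a doubling of signal, and levels of different probe sets are not compared. The bulb interneuron markers Th and Gad1 were bright in all arrays. Th, the rate-limiting enzyme of dopamine synthesis, lay between 14.27 and 16.07. Gad1, which makes the inhibitory transmitter GABA, lay between 14.90 and 16.07. Among markers of mitral and tufted cells, the output neurons of the bulb, Cdhr1 lay between 12.86 and 14.39. Eomes lay between 11.84 and 13.87, but Tbx21 only between 7.0 and 7.94. Vehicle replicate 3 and the second replicate of each dose (1% replicate 2, 10% replicate 2) are called here the arrays of higher cortical signal. In them 17 genes of cortical projection neurons averaged 10.37 to 10.40, against 9.31 to 9.78 in the other 6. In the same 3 arrays the mean of 15 bulb interneuron genes was 12.43 to 12.58, against 13 to 13.36. A list of 11 striatal genes that holds no receptor averaged 9.76 in vehicle replicate 3 and 9.01 in 1% replicate 3, against 7.91 to 8.39 in the other 7 arrays. In whole tissue, more cells of a type and more RNA per cell cannot be told apart. Many receptors were dim: 19 of the 37 lay below the median of the negative control probe sets (6.87 to 7.12) in all 9 arrays and 11 in none. The 95th percentile of those controls was 10.8 to 11.1, so they set no detection floor, and no receptor was left out.

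No receptor gene differed between groups after adjustment over all genes, with limma's moderated test and Benjamini-Hochberg adjustment. The count was 0 of 37 in each of the 3 comparisons, and 0% of all genes passed in any of them. At an unadjusted p under 0.05, 1 receptor (2.70%) differed between 1% linalyl acetate and vehicle, against 3.42% of all genes. Between 10% linalyl acetate and vehicle there were 3 (8.11%), against 3.78%. Between 10% and 1% there was 1 (2.70%), against 3.0%. The 1% receptor was Adra2a, the 10% receptors were Htr1d, Htr3b and Htr5a, and Htr5a also differed between the doses. The authors' criterion, an unadjusted p under 0.05 with a fold change over 2, took 0 receptors in each comparison, against 0.164% of all genes for 1%, 0.197% for 10% and 0.108% between doses. The authors' deposited table of comparisons with vehicle also has p under 0.05 for Adra2a at 1% and for Htr1d, Htr3b and Htr5a at 10%, with lowest adjusted p-values of 0.9996 and 0.9997.

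The 3 arrays of the groups did not overlap for 4 receptors (10.8%) at 1% against vehicle, where 9.22% of all genes did not. These were Adra1b, Adra2a and Chrm5, higher, and Drd5, lower. At 10% they were 4 (10.8%) against 7.46%: Adra2b and Htr3b, higher, and Htr1d and Htr5a, lower. Between the doses they were 2 (5.41%) against 7.10%, with Chrm4 and Htr5a both lower at 10%. The share at 1% was close to that of all genes. The mean was higher than in vehicle for 22 receptors at 1% and for 20 at 10%, where 50.1% and 51.1% of all genes had a higher mean, with median differences of 0.08 and 0.02, beside 0.003 and 0.01 over all genes.

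**Figure D1:**
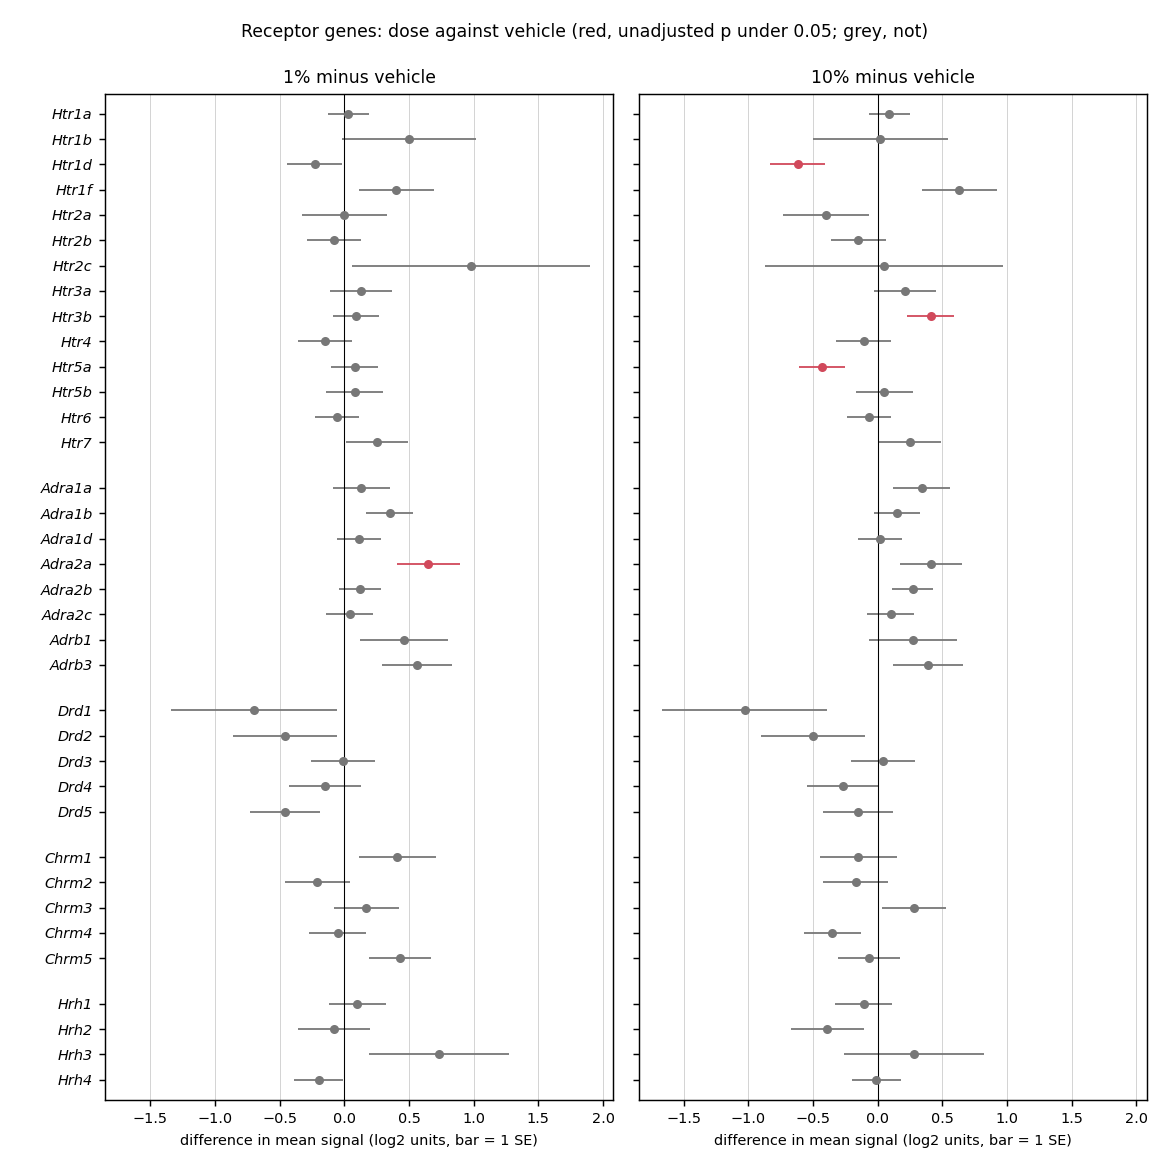
Difference of mean log2 signal from vehicle for 36 of the receptor genes, at 1% (left) and 10% linalyl acetate (right), grouped by transmitter. Points are differences between groups of 3 arrays and bars 1 standard error; red marks the 1 gene at 1% and the 3 genes at 10% with an unadjusted p under 0.05, and none passed adjustment.

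Among the serotonin receptors, Htr1d and Htr5a were lower after 10% linalyl acetate and Htr3b was higher, each without adjustment, while Htr2c varied most between arrays. Htr1d, a Gi/o-coupled receptor found on nerve terminals and a target of the triptan drugs, read 7.23, 7.06 and 7.57 in vehicle, 6.81, 7.32 and 7.04 at 1%, and 6.44, 6.99 and 6.57 at 10%. All 10% arrays lay below all vehicle arrays, and the 1% arrays overlapped both groups. The 10% difference was -0.62 ± 0.21 (SE), 1.54-fold, with an unadjusted p of 0.0138 and an adjusted p of 0.998. It lost the unadjusted call without vehicle replicate 3 (-0.48) or without 10% replicate 1 (-0.51).

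Htr5a, a Gi/o-coupled receptor of neurons, read 6.90, 6.93 and 7.29 in vehicle, 7.17, 6.96 and 7.22 at 1%, and 6.77, 6.71 and 6.35 at 10%. The 10% arrays lay below every array of the other groups, and 10% replicate 3 lay lowest. The difference was -0.43 ± 0.18 from vehicle (unadjusted p 0.0386) and -0.51 ± 0.18 from 1% (unadjusted p 0.0183), with adjusted p-values of 0.998 and 0.999. Without 10% replicate 3 they were -0.30 and -0.38 and lost the call. The first also lost it without vehicle replicate 3 (-0.30), and the second without 1% replicate 1 (-0.48) or 1% replicate 3 (-0.46).

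Htr3b, which joins Htr3a in the serotonin-gated channel, read 3.92, 3.73 and 3.70 in vehicle, 3.99, 3.84 and 3.78 at 1%, and 4.50, 3.95 and 4.14 at 10%. It was dim in every array, below the negative control median, and 10% replicate 1 stood highest. The 10% difference was 0.41 ± 0.18 (unadjusted p 0.041, adjusted p 0.998). Without 10% replicate 1 it was 0.26. The call was also lost without vehicle replicate 2 (0.39) or 3 (0.37), 1% replicate 2 or 3 (0.41 each), or 10% replicate 3 (0.44). Htr3a, the subunit that forms a channel on its own, differed from vehicle by 0.13 ± 0.24 at 1% and 0.21 ± 0.24 at 10%.

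Htr2c, a Gq/11-coupled receptor abundant in forebrain neurons and in the choroid plexus, read 8.09, 8.39 and 11.42 in vehicle, 9.92, 11.23 and 9.69 at 1%, and 8.14, 11.30 and 8.61 at 10%. The highest array of each group was the one of higher cortical signal, and the groups overlapped. Its within-group SD of 1.53 lay at the 99.8 percentile of all genes, and the differences from vehicle were 0.98 ± 0.92 at 1% and 0.05 ± 0.92 at 10%. The choroid plexus markers Ttr, a thyroid hormone carrier, and Kl, the klotho coreceptor, lay between 5.40 and 6.51 and between 5.35 and 6.07 over the 9 arrays. Ttr was at its highest in vehicle replicate 3 (6.51) and at its lowest in 10% replicate 2 (5.40). The RefSeq promoter window of Htr2c, from 250 bases before the start to 50 after it, at chrX:146962263-146962562 on the plus strand of GRCm38.p6, is shown because this receptor varied most between arrays. It holds 5 CpG dinucleotides and none of the motifs described below.
Htr2c: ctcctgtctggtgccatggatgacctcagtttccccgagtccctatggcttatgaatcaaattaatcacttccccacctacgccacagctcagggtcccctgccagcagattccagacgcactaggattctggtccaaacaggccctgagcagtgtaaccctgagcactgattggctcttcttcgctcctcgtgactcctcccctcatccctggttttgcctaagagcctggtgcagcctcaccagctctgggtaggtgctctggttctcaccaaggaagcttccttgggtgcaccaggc

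Htr2a, also Gq/11-coupled and the main target of classical psychedelics, read 9.90, 10.35 and 10.98 in vehicle, 10.33, 10.84 and 10.06 at 1%, and 9.48, 10.54 and 10.01 at 10%. Its differences from vehicle were 0.00 ± 0.33 and -0.40 ± 0.33. Htr1b, a Gi/o-coupled autoreceptor of serotonin terminals, read 4.85, 5.14 and 7.05 in vehicle, 5.60, 6.88 and 6.05 at 1%, and 5.84, 6.11 and 5.16 at 10%. For both genes the highest array of each group was again the one of higher cortical signal, and the groups overlapped.

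Htr1f, a Gi/o-coupled receptor, ran the other way, and was singled out after its values were seen. It read 10.27, 9.89 and 9.45 in vehicle, 10.38, 9.90 and 10.52 at 1%, and 10.77, 9.91 and 10.83 at 10%. The array of higher cortical signal was the lowest of each group, at 9.45, 9.90 and 9.91. The 10% difference was 0.63 ± 0.29 (unadjusted p 0.0504, adjusted p 0.998). Its promoter window, at chr16:65105735-65106034 on the minus strand, holds 13 CpG dinucleotides and 1 GC box in capitals, and is shown beside that of Htr2c because the pair differed in direction across the arrays.
Htr1f: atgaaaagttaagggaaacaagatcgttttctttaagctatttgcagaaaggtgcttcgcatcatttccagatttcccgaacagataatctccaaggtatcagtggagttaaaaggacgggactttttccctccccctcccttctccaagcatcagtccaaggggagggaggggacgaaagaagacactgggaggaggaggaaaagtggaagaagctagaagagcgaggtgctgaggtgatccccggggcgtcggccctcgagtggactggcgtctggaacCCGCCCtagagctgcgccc

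The remaining serotonin receptors spanned at most 0.78 log2 units, though the within-group SD of Htr7 lay at the 68.9 percentile of all genes. Htr1a, the Gi/o-coupled autoreceptor of raphe cell bodies, spanned 6.32 to 6.69, the smallest span of all 37 receptors at 0.37. The Gs-coupled receptors Htr4, Htr6 and Htr7 spanned 7.03 to 7.81, 4.89 to 5.36 and 6.18 to 6.94. Htr2b, best known from heart and gut, spanned 3.33 to 4.05 and was dim throughout, and Htr5b, a gene that is functional in mice and lost in humans, spanned 5.61 to 6.37. Of the 14 serotonin receptors, 9 had a higher mean and 4 a lower one at 1%, where the means of Htr2a were equal, and 8 had a higher mean at 10%.

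**Figure D2:**
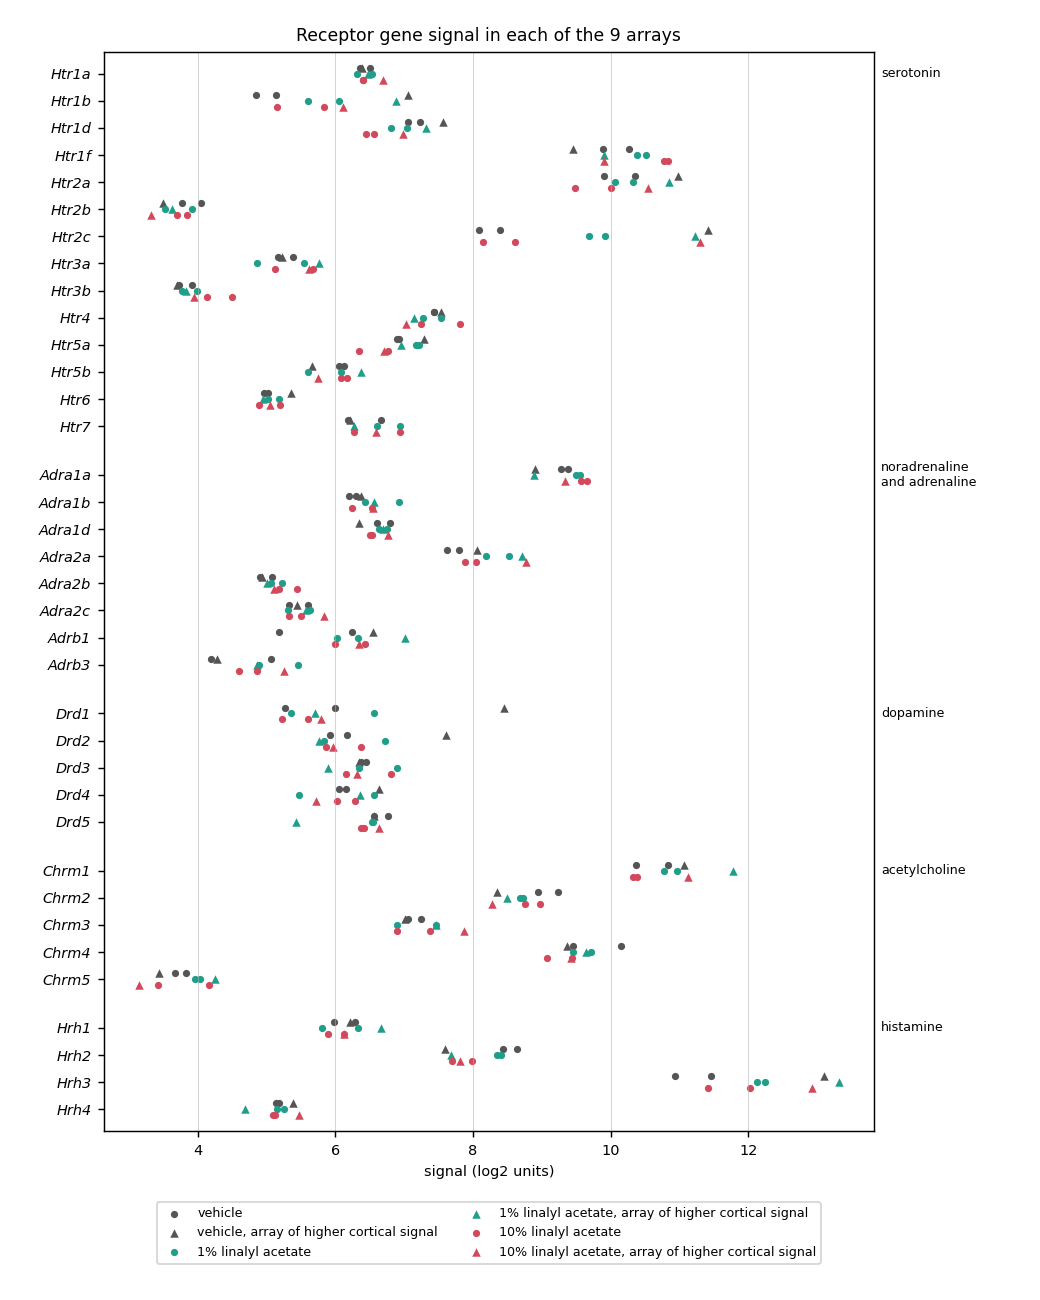
Log2 signal of 36 receptor genes (rows, by transmitter) in each of the 9 arrays; colour marks the group and triangles the 3 arrays of higher cortical signal. The triangles of Htr2c lie at 11.23 to 11.42, above all other arrays, and those of Htr1f lie at the low end of each group.

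The adrenergic receptors had higher means than vehicle in 8 of 9 genes at 1% and 9 of 9 at 10%, beside 50.1% and 51.1% of all genes, with median differences of 0.13 and 0.27, but only Adra2a had an unadjusted p under 0.05. The comparisons share the vehicle arrays, and without vehicle replicate 3 these counts were 6 and 8. Without the 3 arrays of higher cortical signal they were 6 and 6. Adra2a, a Gi/o-coupled autoreceptor of noradrenergic neurons and the target of clonidine, read 7.63, 7.79 and 8.06 in vehicle, 8.19, 8.71 and 8.52 at 1%, and 8.05, 8.77 and 7.89 at 10%. All 1% arrays lay above all vehicle arrays, while 10% replicates 1 and 3 lay within the vehicle range. The difference was 0.65 ± 0.24 at 1%, 1.57-fold (unadjusted p 0.0222, adjusted p 0.998), and 0.41 ± 0.24 at 10% (unadjusted p 0.121). The call at 1% was lost without vehicle replicate 1 (0.55), vehicle replicate 2 (0.63), 1% replicate 2 (0.53) or 1% replicate 3 (0.62). The Adra2a promoter window, at chr19:54045009-54045308 on the plus strand, holds 28 CpG dinucleotides. It is shown because it carries all the motifs searched, with a GC box, a cyclic AMP response element core and a TATA box in capitals, in that order.
Adra2a: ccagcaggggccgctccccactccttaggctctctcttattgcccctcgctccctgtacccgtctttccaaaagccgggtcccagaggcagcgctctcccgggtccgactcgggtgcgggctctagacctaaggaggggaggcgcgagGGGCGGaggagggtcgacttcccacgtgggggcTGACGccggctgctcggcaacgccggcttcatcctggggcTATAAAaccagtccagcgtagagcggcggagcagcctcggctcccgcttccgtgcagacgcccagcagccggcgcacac

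In all, 28 of the 37 receptors had a RefSeq promoter entry, with 36 windows of 300 bases between them. Of these, 22 (61.1%) held the GC box GGGCGG on either strand, against 35.7% of 32851 promoters. The TATA box TATAAA was in 1 (2.78%), that of Adra2a, against 13.6%. The cyclic AMP response element core TGACG was in 3 (8.33%), of Adra2a, Adrb1 and Htr7, against 20.8%. Matches of different motifs may share an end base, and a match is a description of letters and not a bound site. The median CpG count was 14.5 in the receptor windows and 7 in all promoters.

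Adrb1, the Gs-coupled receptor known for its role in heart rate, read 5.19, 6.24 and 6.55 in vehicle, 6.33, 7.02 and 6.02 at 1%, and 6.43, 6.35 and 6.0 at 10%. Vehicle replicate 1 stood lowest and 1% replicate 2 highest, the groups overlapped, and the differences were 0.46 ± 0.34 and 0.27 ± 0.34. Adra1b, Gq/11-coupled, spanned 6.20 to 6.92 and was higher at 1% by 0.35 ± 0.18 without overlap. Adra2b, Gi/o-coupled, spanned 4.91 to 5.45 and was higher at 10% by 0.27 ± 0.16 without overlap. Both had unadjusted p-values above the threshold (0.0767 and 0.118). Adrb3, the Gs-coupled receptor of fat tissue, spanned 4.20 to 5.46 and differed by 0.56 ± 0.27 at 1%. Adra1a and Adra1d, Gq/11-coupled, and Adra2c, Gi/o-coupled, spanned 0.46 to 0.77 and differed from vehicle by 0.02 to 0.34.

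The dopamine receptors had lower means in 5 of 5 genes at 1% and 4 of 5 at 10%, with median differences of -0.46 and -0.27 and no unadjusted call. Without vehicle replicate 3, 2 were lower at 1% and 3 at 10%, with medians of 0.03 and -0.10. Drd1, the Gs-coupled receptor of direct-pathway striatal neurons, read 5.27, 6.0 and 8.45 in vehicle, 5.36, 5.70 and 6.57 at 1%, and 5.60, 5.79 and 5.23 at 10%. Drd2, the Gi/o-coupled receptor of indirect-pathway striatal neurons, read 6.17, 5.93 and 7.61 in vehicle, 5.84, 5.77 and 6.72 at 1%, and 5.87, 5.97 and 6.37 at 10%. For both, vehicle replicate 3 stood far above the other arrays and 1% replicate 3 was the highest of its group, the same arrays in which the striatal list was high.

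The Drd1 difference was -0.70 ± 0.64 at 1% and -1.03 ± 0.64 at 10%, and the Drd2 difference -0.46 ± 0.40 and -0.50 ± 0.40. Without vehicle replicate 3 they were 0.24 and -0.10 for Drd1 and 0.06 and 0.02 for Drd2. The part of the striatal signal in these values was not tested. Drd5, Gs-coupled, read 6.77, 6.57 and 6.56 in vehicle, 6.55, 5.43 and 6.53 at 1%, and 6.42, 6.64 and 6.38 at 10%. The 1% arrays lay below the vehicle arrays, by 0.01 at the nearest, and 1% replicate 2 stood far below all others, with a difference of -0.46 ± 0.27. Drd3 and Drd4, both Gi/o-coupled, spanned 5.90 to 6.89 and 5.47 to 6.63 and were dim in all arrays.

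Among the muscarinic receptors, no gene had an unadjusted p under 0.05. Chrm5, a Gq/11-coupled receptor of midbrain dopamine neurons, read 3.68, 3.83 and 3.44 in vehicle, 4.03, 4.25 and 3.97 at 1%, and 3.42, 3.15 and 4.16 at 10%. The 1% arrays lay above the vehicle arrays by 0.43 ± 0.24 (unadjusted p 0.102), all values were dim, and 10% replicate 3 stood apart from the other 10% arrays. Chrm1, the main Gq/11-coupled muscarinic receptor of cortex, read 10.37, 10.83 and 11.06 in vehicle, 10.96, 11.77 and 10.77 at 1%, and 10.32, 11.12 and 10.38 at 10%. Chrm2, a Gi/o-coupled autoreceptor of cholinergic terminals, read 8.94, 9.24 and 8.35 in vehicle, 8.68, 8.49 and 8.72 at 1%, and 8.98, 8.28 and 8.75 at 10%. In the arrays of higher cortical signal Chrm1 was the highest of each group and Chrm2 the lowest. Chrm4, Gi/o-coupled, differed between 10% and 1% by -0.29 ± 0.22 without overlap, and Chrm3, Gq/11-coupled, spanned 6.89 to 7.87. The values of Chrm1 and Chrm2 were chosen for printing after they were seen.

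Hrh3, a Gi/o-coupled receptor that limits the release of histamine and other transmitters, varied most among the histamine receptors. It read 10.94, 11.46 and 13.10 in vehicle, 12.13, 13.31 and 12.24 at 1%, and 12.02, 12.92 and 11.41 at 10%. The array of higher cortical signal was the highest of each group, and the groups overlapped, with differences of 0.73 ± 0.54 at 1% and 0.28 ± 0.54 at 10%. Hrh2, Gs-coupled, read 8.44, 8.64 and 7.59 in vehicle, 8.35, 7.68 and 8.40 at 1%, and 7.98, 7.81 and 7.70 at 10%, values singled out after they were seen. It was low in the arrays of higher cortical signal of the vehicle and 1% groups and in all 10% arrays. Hrh1, Gq/11-coupled and the target of sedating antihistamines, spanned 5.81 to 6.66. Hrh4, best known from blood cells, spanned 4.69 to 5.47, and both were dim throughout. The Hrh3 promoter window, at chr2:180104358-180104657 on the minus strand, is shown as the contrast to that of Htr2c, since these receptors were both high in the same arrays. It holds 47 CpG dinucleotides and 5 GC boxes in capitals, of which the leading pair share bases, while the Htr2c window holds no GC box.
Hrh3: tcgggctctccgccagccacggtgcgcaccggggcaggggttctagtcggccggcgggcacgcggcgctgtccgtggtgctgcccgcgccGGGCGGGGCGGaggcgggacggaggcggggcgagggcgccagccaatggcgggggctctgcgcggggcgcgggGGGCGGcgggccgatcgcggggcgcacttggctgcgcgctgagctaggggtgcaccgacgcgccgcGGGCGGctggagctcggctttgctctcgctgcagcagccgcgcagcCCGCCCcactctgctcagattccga

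Several receptors differed widely between arrays of the same group. The median within-group SD of the receptors was 0.33, against 0.26 over all genes, and 7 (18.9%) spanned at least 1.5 log2 units over the 9 arrays, against 5.74%. In the array of higher cortical signal, 7 receptors (18.9%) were the highest of their group in all 3 groups, against 7.10% of all genes: Adra2a, Chrm1, Hrh3, Htr1b, Htr1d, Htr2a and Htr2c. The lowest in all 3 groups were 3 (8.11%), Adra1a, Chrm2 and Htr1f, against 6.28%. Relative to the other arrays of its group, Htr2c was higher by 3.18 in vehicle, 1.43 at 1% and 2.93 at 10%. The mean of these differences over the groups was 2.51 for Htr2c, 1.41 for Hrh3, 1.24 for Htr1b, 0.76 for Htr2a, 0.71 for Chrm1 and -0.69 for Htr1f.

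Some marker lists moved in the same arrays and others did not. Of 18 cortical probe sets 10 were highest in all 3 groups, of 9 oligodendrocyte probe sets 6 were, and of 15 bulb interneuron probe sets 12 were lowest. Of 11 striatal and 11 endothelial and mural probe sets 0 were highest or lowest in all 3, and of 10 astrocyte and 9 microglial probe sets 1 each was highest. Olfactory ensheathing glia had 3 of 8 lowest, and meninges and choroid plexus 2 of 10 lowest. Mitral and tufted cells had 2 of 8 highest and 2 lowest, and olfactory sensory neurons 2 of 10 highest and 1 lowest. Among all genes, 7.10% were highest and 6.28% lowest in all 3 groups. Neurod6, a transcription factor of cortical pyramidal neurons, read 8.68, 9.50 and 9.57 in those arrays, against 6.19 to 7.11 elsewhere. These arrays were singled out by marker lists chosen with earlier results known, so the counts are descriptions, and the part of cortical tissue in them was not tested.

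**Figure D3:**
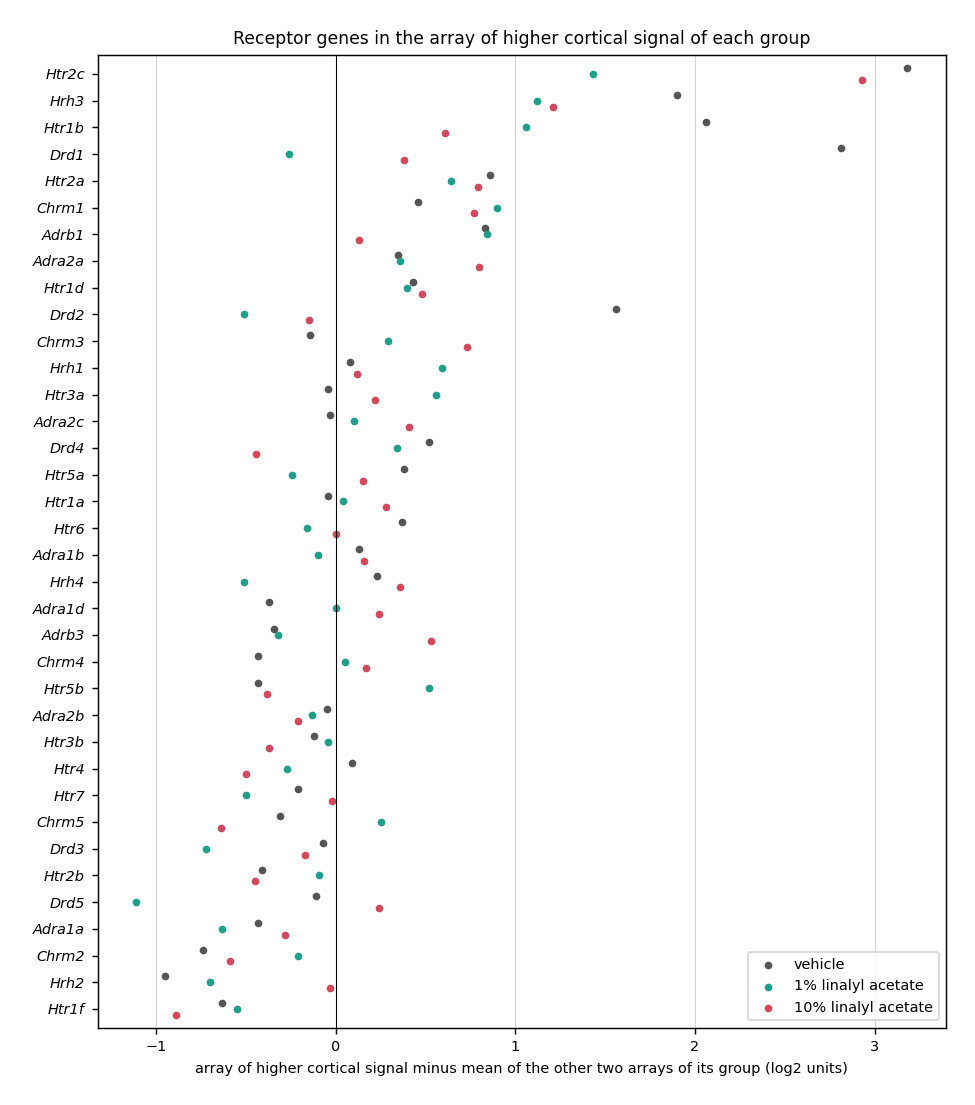
For 36 receptor genes, the log2 signal in the array of higher cortical signal minus the mean of the other arrays of its group; each point is 1 group. All 3 points lie right of 0 for Htr2c, Hrh3, Htr1b, Htr2a, Chrm1, Adra2a, Htr1d, Adrb1 and Hrh1. All 3 lie left of 0 for Htr1f, Chrm2, Adra1a, Hrh2, Adra2b, Drd3, Htr2b, Htr3b and Htr7.

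Without these 3 arrays, which leaves 2 per group, 4 receptors (10.8%) had an unadjusted p under 0.05 at 1%, against 5.81% of all genes. Htr2c was higher by 1.56 ± 0.24 (unadjusted p 0.000126, adjusted p 0.15), Hrh3 by 0.98 (unadjusted p 0.00595), Htr1b by 0.83 (0.0171) and Adra2a by 0.65 (0.0152). The cortical list differed in the same direction among these arrays, at 9.31 and 9.46 in vehicle, 9.71 and 9.78 at 1%, and 9.32 and 9.62 at 10%. At 10% there were 3 (8.11%) against 5.41%: Hrh2 at -0.70 (0.00889), Htr1f at 0.72 (0.00897) and Htr1d at -0.64 (0.013). Between doses there were 4 (10.8%) against 4.39%, with Htr2c at -1.43 ± 0.24 (unadjusted p 0.000243, adjusted p 0.601), Htr5a at -0.64, Hrh2 at -0.54 and Chrm1 at -0.52. No receptor passed adjustment there, although 11 of all genes did at 1%, 12 at 10% and 0 between doses.

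**Figure D4:**
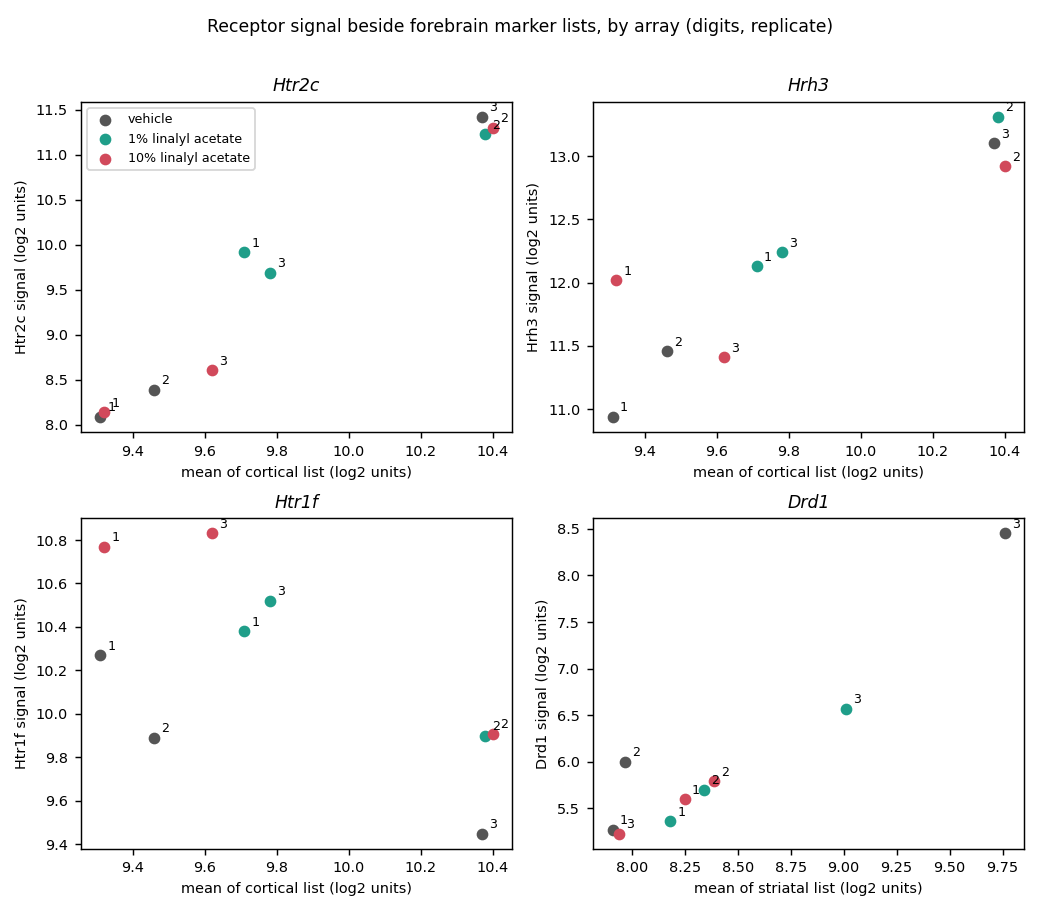
Log2 signal of Htr2c, Hrh3 and Htr1f against the mean of the cortical list, and of Drd1 against the mean of the striatal list; each point is 1 array, coloured by group and numbered by replicate. The 3 arrays at 10.37 to 10.40 on the cortical axis hold the highest Htr2c and Hrh3 values, and vehicle replicate 3 is alone at the upper right for Drd1.

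Few genes of transmitter handling and receptor signalling differed. Over 9 lists with 107 probe sets of transmitter synthesis and transport, nicotinic subunits, G proteins, cyclases, phosphodiesterases and desensitization, 0 passed adjustment. An unadjusted p under 0.05 was found for 1 (0.935%) at 1%, 1 (0.935%) at 10% and 3 (2.80%) between doses. The shares of all genes were 3.42%, 3.78% and 3.0%, so the share between doses was close to that of all genes. Slc6a3, the dopamine transporter, read 6.22, 6.43 and 6.40 in vehicle, 6.15, 6.0 and 6.50 at 1%, and 5.83, 5.42 and 6.06 at 10%. All 10% arrays lay below the vehicle arrays, with a difference of -0.58 ± 0.20 (unadjusted p 0.0156, adjusted p 0.998), and all values were dim. Rgs11, which speeds the shut-off of Gi/o proteins, differed by 0.47 ± 0.21 at 1% (unadjusted p 0.0459) and by -0.46 ± 0.21 between doses (unadjusted p 0.0486). The adenylyl cyclases Adcy7 and Adcy4 were higher at 10% than at 1% by 0.56 ± 0.23 and 0.53 ± 0.22 (unadjusted p 0.0319 and 0.0363). Rgs11, Adcy7 and Adcy4 were dim too, below the negative control median in every array. The 12 catecholamine handling genes, Th among them, had lower means in 7 at 1% and 9 at 10%. Of all genes, 50.1% and 51.1% had a higher mean. A further list held genes transcribed soon after neuronal activity, downstream of many receptors besides these. Of its 20 probe sets, 13 were lower at 1% and 17 at 10% at an unadjusted p under 0.05 and 0 after adjustment. In either direction, 3.42% and 3.78% of all genes had such a p. The median differences of the list were -1.47 and -1.94. The vehicle arrays did not lie together: the list averaged 10.83, 11.04 and 8.53 in vehicle, 8.49, 9.11 and 8.13 at 1%, and 7.86, 8.48 and 8.10 at 10%.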

How the data were processed

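The authors normalized the arrays by RMA (robust multi-chip average) with Transcriptome Analysis Console 4 and used limma, per the submitters' processing notes. The deposited signal table gives log2 values for 22206 probe sets. The design text names a human array and cell line, but the identifiers carry a mouse suffix. In 1 array, 27 cells held calendar dates, which were decoded and lay within 0.00518 of the deposited series matrix of log2 values. Probe sets with several symbols (836) or none (3) were left out. The sources used here do not give the files' genome build. The authors' deposited comparison tables give p-values and a signed fold change score.

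With limma 3.58.1 and statmod 1.5.0 in R 4.3.3, a model with 1 mean per group was fitted to the log2 values of all 9 arrays, with 6 residual and 5.27 prior degrees of freedom, pairwise contrasts and adjustment by Benjamini-Hochberg over the 21367 single-symbol probe sets at 0.05. With 3 arrays a group, the smallest p of an exact permutation test is 0.1, so none was run. The fit was tested on simulated data. Values in all arrays are given for receptors with an unadjusted p under 0.05, for groups that do not overlap with a difference of at least 0.4, and for a span of at least 1.5, which took 13 genes; the other 24, spanning 0.37 to 1.45, are given by range unless said otherwise, except 1 that is counted but not reported here. From each pathway list at most the 3 genes with the smallest p could be named. Members and lists were chosen with earlier results of these data known. Same-numbered arrays of different groups correlated at -0.16 to 0.28 in their deviations from the group means. These values cannot decide whether the numbers pair the arrays, as no differently numbered arrays were set beside them. The main fit treats the arrays as unpaired. Promoter windows are from RefSeq (GRCm38.p6). Python 3.11.15 with numpy 2.4.6, pandas 2.3.3 and matplotlib 3.10.9 was also used. Alternatives were the series matrix values, quantile normalization, a filter on dim probe sets, other moderation, array weights, all probe sets, a replicate block, the compared groups alone and leaving out arrays.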

Additional observations from a re-analysis of the deposited data

How the results depend on the processing

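The count of receptors past adjustment was 0 under every alternative run, in all 3 comparisons, and no difference with an unadjusted p under 0.05 changed sign. Of 2037 receptor differences under the alternatives, 132 changed sign, all with an unadjusted p of at least 0.05 when all arrays were used. Over all alternatives, 1969 receptor differences kept their side of the unadjusted threshold, 26 lost a p under it and 42 gained one. Of those that kept their side, 11 moved by more than the spread between replicates. The counts at an unadjusted p under 0.05 shifted more. At 1% the count of 1 became 4 without the 3 arrays of higher cortical signal and 2 with the compared groups alone in the fit. It became 5 without the 2 arrays of higher striatal signal, a setting chosen after seeing the data. The shares of all genes in these settings were 5.81%, 4.2% and 4.67%, against 3.42% in the main fit. Leaving out each array in turn gave 0 to 4 receptors, beside 2.65% to 5.45% of all genes. At 10% the count of 3 became 1 among probe sets at or above the median, a filter that left 13 of the 37 receptors to be tested. It was 1 with the compared groups alone, 1 without the arrays of higher striatal signal, and 1 to 6 leaving out arrays in turn. Between doses the count of 1 became 0 among the 13 receptors at or above the median. It was 4 without the arrays of higher cortical signal, beside 4.39% of all genes, and 0 to 6 leaving out arrays in turn. The authors' criterion took 1 receptor at 1% without the arrays of higher cortical signal and 3 without those of higher striatal signal. The shares of all genes there were 0.65% and 0.73%, against 0.164% in the main fit. Leaving out arrays in turn, the criterion took 0 to 3 receptors at 1%, beside 0.15% to 0.55% of all genes. At 10% it took 0 to 1, and between doses 1 without the arrays of higher cortical signal and 0 to 1 leaving out arrays in turn. Receptors removed by the filter at the median could not be counted under it. The cause of the other shifts was not tested. The replicate block treats same-numbered arrays as paired, which no title states. With it the counts were 1, 3 and 2. Chrm1 at -0.56 was added between doses, Htr1f at 0.63 was added at 10% and Htr5a at -0.43 was lost there. Without vehicle replicate 3, Htr2c was higher at 1% by 2.04, Hrh3 by 1.36 and Htr1b by 1.18, each with an unadjusted p under 0.05 and none after adjustment. That setting leaves out the array of higher cortical signal of the vehicle group alone. It keeps 1% replicate 2, where each of these genes was the highest of its group, so the groups are unequal in cortical signal. The number of arrays, 3 a group, limits the precision of all these values, and 19 receptors were dim in every array.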
